A study of Mus musculus with 4 samples.

Results

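Transcription factors that set up the Th17 program and the receptor that maintains it were examined in CD4+ T cells from the inflamed mouse colon. Th17 cells are CD4+ T cells that make interleukin 17. Rows were taken by gene symbol from the deposited table of normalized counts, and all 7 symbols sought were found among its 16555 genes: Rora, Batf, Maf, Ahr, Il23r, Tmem176a and Tmem176b. The cells were sorted as CD45+CD3+CD4+ from colons of Rag1-/- mice 6 weeks after transfer of CD4+CD25-CD45RBhi T cells, which induces colitis in such hosts. There were 2 libraries from CK2α fl/fl dLck-Cre donor cells and 2 from CK2α fl/fl donor cells. Donor cells of both groups carried the floxed CK2α alleles, and those of the first also carried Cre recombinase under the distal Lck promoter, which is active in mature T cells. The comparison addresses how loss of CK2α, a catalytic subunit of the kinase CK2, alters colitogenic CD4+ T cells. Rag1-/- hosts lack T and B cells of their own but keep epithelial, myeloid and innate lymphoid cells. The labels give neither the ages of the mice nor whether each library is a separate animal or a pool. The p-values therefore reflect the spread among these libraries alone, and that spread may be technical.

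Th17 cells arise when naive CD4+ T cells receive TGF-beta with IL-6, and IL-23 then sustains them. BATF, an AP-1 family factor, pairs with JUN proteins and opens chromatin at Th17 genes together with IRF4, and the nuclear receptor RORα binds there as well. c-MAF drives the interleukin 10 and interleukin 21 genes, and AHR, a receptor for dietary and microbial ligands, supports interleukin 22. IL-23R pairs with IL-12Rβ1 and signals through JAK2, TYK2 and STAT3. TMEM176A and TMEM176B are membrane proteins related to the MS4A family, and in mice both Th17 cells and dendritic cells express their genes.

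RefSeq promoter windows (GRCm38.p6, the assembly of mm10) were held for 5 of the 7 genes. The 250 bases before the RefSeq start are shown for Il23r, whose difference was the largest of the 7 in size, and for Rora, which passed the test, so that letters bound by families of these factors can be seen. Capitals mark matches on either strand to AGGTCA, bound by ROR factors, GCGTG, bound by AHR, TGANTCA, bound by AP-1 factors, and TGCTGA, bound by MAF factors.
Il23r, chr6:67491856-67492105, minus strand: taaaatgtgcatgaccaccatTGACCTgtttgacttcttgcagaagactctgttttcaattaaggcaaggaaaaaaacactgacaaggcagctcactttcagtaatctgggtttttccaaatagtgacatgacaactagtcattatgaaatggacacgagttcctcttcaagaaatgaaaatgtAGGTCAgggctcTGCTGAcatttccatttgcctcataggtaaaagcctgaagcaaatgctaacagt
Rora, chr9:68653536-68653785, plus strand: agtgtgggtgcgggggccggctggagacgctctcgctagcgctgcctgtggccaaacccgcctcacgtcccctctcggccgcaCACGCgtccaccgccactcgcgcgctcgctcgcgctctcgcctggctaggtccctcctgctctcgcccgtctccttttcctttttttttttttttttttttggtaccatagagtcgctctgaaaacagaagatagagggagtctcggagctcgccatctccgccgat
The Il23r window held AGGTCA on both strands, at 66 to 61 bases before the start on the gene's own strand and at 229 to 224 on the other, and TGCTGA at 54 to 49. The Rora window held only GCGTG, on the other strand, at 167 to 163 bases before the start. Among 32851 windows of the same length, 14.0% held AGGTCA, 28.2% GCGTG, 6.75% TGANTCA and 16.1% TGCTGA. No match to the letters searched was found in the windows of Batf, Tmem176a and Tmem176b. A match is a run of letters and was not tested as a binding site.

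Whole reads recovered from the table came to between 16777017 and 22422971 a library. Csnk2a1, which encodes the targeted CK2α, had 2118 and 2031 normalized counts in the libraries labelled dLck-Cre, compared with 1534 and 1597 in the fl/fl libraries. The targeted gene was thus no lower in the libraries carrying the dLck-Cre label (log2 difference 0.41 ± 0.13 SE, limma, adjusted p = 0.108). Csnk2a1 passed limma's test as higher when libraries were scaled to T cell identity genes (0.97, adjusted p = 0.00731) or to sort gate genes (0.86, adjusted p = 0.00599). These scalings also moved the median of all genes to 0.54 and 0.43, and 5869 and 3776 of the 16490 genes tested then passed as higher. A count per gene cannot show an exon deletion, so directions are given by label. All 20 T cell identity genes listed were detected in every library. They took 0.606% and 0.540% of normalized counts in the libraries labelled dLck-Cre and 0.791% and 0.775% in the fl/fl libraries. Epithelial markers (20 genes) took 0.707% and 0.808% in the libraries labelled dLck-Cre, compared with 0.283% and 0.314% in the fl/fl libraries. Macrophage and dendritic cell markers (20 genes) took 0.490% and 0.399% in the libraries labelled dLck-Cre and 0.245% and 0.140% in the fl/fl libraries. None of these 40 non-T cell markers was at 0 in any library. By limma 17 of the 20 epithelial and 13 of the 20 macrophage and dendritic cell markers passed as higher, beside 5.75% of genes tested. In the latter list Cx3cr1 (log2 difference -0.40, adjusted p = 0.585) and Xcr1 (-0.25, adjusted p = 0.619) lay on the other side of 0 and did not pass. In such bulk samples fewer cells of a type and less RNA per cell cannot be told apart.

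All 7 genes had lower means in the libraries labelled dLck-Cre, and Rora and Batf passed the test over all genes. Their summed level was 0.106% and 0.124% of normalized counts in the libraries labelled dLck-Cre and 0.172% and 0.176% in the fl/fl libraries. The 2 called genes of 7 stand beside a background of 1.22% of 16490 genes tested that were called lower and 6.97% called in either direction (limma on log2 of the normalized count plus 1, Benjamini-Hochberg adjusted p under 0.05). Both libraries labelled dLck-Cre lay below both fl/fl libraries for all 7, as for 27.4% of genes tested. By edgeR 2 of the 7 were called lower, beside 1.04% of genes, and by DESeq2 5 of the 7 (all but Ahr and Tmem176b), beside 3.02%. The median log2 difference was -0.78 over the 7 and -0.02 over all genes tested. Lower values were not particular to the 7. All 20 T cell identity genes also had differences below 0, at a median of -0.53, and limma called 8 of these 20 lower, beside the same 1.22%. The 7 were chosen with results of these data known, so the counts given for the 7 describe them and are no test of the set.

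**Figure D1:**
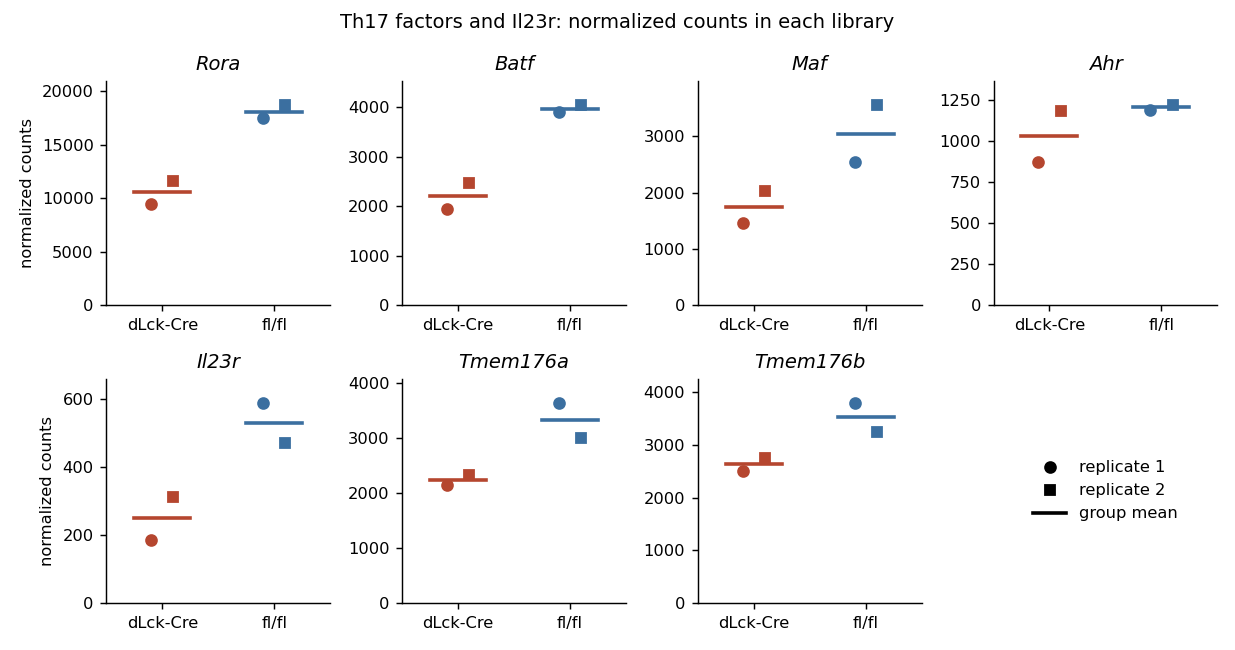
Normalized counts (vertical axes, from 0) of the 7 genes in each library, with circles and squares for replicates 1 and 2 and a bar for the group mean. In every panel both libraries labelled dLck-Cre lie below both fl/fl libraries; for Ahr the gap is between 1184 in dLck-Cre replicate 2 and 1190.0 in fl/fl replicate 1.

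Batf lies on chromosome 12 (85686669 to 85709087, plus strand, GRCm38). It had 1955 and 2463 normalized counts in the libraries labelled dLck-Cre, compared with 3909 and 4049 in the fl/fl libraries. Both fl/fl libraries were far above both others, and their log2 gap of 0.05 was smaller than the 0.33 between the libraries labelled dLck-Cre. Batf fell by 0.86 on the log2 scale (SE 0.15; limma, adjusted p = 0.0266), to 2209 ± 359 in the libraries labelled dLck-Cre against 3979 ± 98.9 in the fl/fl libraries (SD, n = 2 each). By edgeR the adjusted p was 0.0283, and by DESeq2 it was 0.000267.

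Rora, the most highly counted of the 7, lies on chromosome 9 (68653786 to 69388246, plus strand). It had 9479.9 and 11646 normalized counts in the libraries labelled dLck-Cre and 17485 and 18706 in the fl/fl libraries. The groups were separated by 0.59 on the log2 scale between the nearest libraries, more than the gap between replicates of either group. Rora fell by 0.78 (log2, SE 0.15; limma, adjusted p = 0.0318), to 10563 ± 1532 in the libraries labelled dLck-Cre against 18096 ± 863 in the fl/fl libraries (SD, n = 2 each). By edgeR the adjusted p was 0.0338, and by DESeq2 it was 0.000484.

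Neither call held under every setting. Without dLck-Cre replicate 2 the differences of Rora and Batf were larger, -0.93 and -1.02, but missed the threshold (limma, adjusted p = 0.0518 for each), and only 17 of all genes then passed. Without fl/fl replicate 2 the Rora difference was -0.73 (adjusted p = 0.0673) and Batf still passed. When libraries were scaled to the 20 T cell identity genes, the Rora difference was -0.22 (adjusted p = 0.336) and the Batf difference -0.29 (adjusted p = 0.216). With the 5 sort gate genes Cd3d, Cd3e, Cd3g, Cd247 and Cd4 as the scale they were -0.33 (adjusted p = 0.177) and -0.40 (adjusted p = 0.112). These scalings moved the median of all genes to 0.54 and 0.43, and 0 of the 7 then passed, beside backgrounds of 0.279% and 0.334% called lower (0 and 1 of the 7 at an unadjusted p under 0.05).

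Il23r, the IL-23 receptor gene on chromosome 6 (67422932 to 67491855, minus strand), had the lowest count of the 7. Its reads numbered 177 and 383 in the libraries labelled dLck-Cre and 568 and 427 in the fl/fl libraries, which gave 185 and 314 normalized counts in the libraries labelled dLck-Cre and 590.3 and 472 in the fl/fl libraries. The groups did not overlap, but the libraries labelled dLck-Cre were 0.76 apart on the log2 scale. Il23r differed by -1.13 ± 0.27 (SE), with means of 249 ± 90.9 normalized counts in the libraries labelled dLck-Cre and 531 ± 83.9 in the fl/fl libraries (SD, n = 2 each). This lay just outside the threshold (limma, adjusted p = 0.0504; edgeR, adjusted p = 0.0600) and inside it by DESeq2 (adjusted p = 0.00357). Without fl/fl replicate 2 the difference was -1.29 and passed limma's test (adjusted p = 0.0312). With dLck-Cre replicate 1 left out it was -0.75 (adjusted p = 0.0876). Scaled to T cell identity genes the Il23r difference was -0.57 (adjusted p = 0.175), and scaled to sort gate genes it was -0.67 (adjusted p = 0.124).

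Maf, which encodes c-MAF, lies on chromosome 8 (115682942 to 115707794, minus strand). It had 1458 and 2039 normalized counts in the libraries labelled dLck-Cre, compared with 2540.1 and 3558 in the fl/fl libraries. Replicates of both groups were spread, 0.48 and 0.49 apart on the log2 scale, and the nearest libraries of the groups were 0.32 apart. The Maf difference of -0.80 ± 0.22 (SE) was as large as that of Rora but did not pass (limma, adjusted p = 0.0727). Without fl/fl replicate 1 it was -1.04 and passed (adjusted p = 0.0193), and without fl/fl replicate 2 it was -0.56 (adjusted p = 0.211). Scaling to T cell identity genes left a Maf difference of -0.24 (adjusted p = 0.467), and scaling to sort gate genes one of -0.35 (adjusted p = 0.267).

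Ahr, the aryl hydrocarbon receptor gene on chromosome 12 (35497974 to 35535038, minus strand), differed least. It had 874 and 1184 normalized counts in the libraries labelled dLck-Cre, compared with 1190.0 and 1218 in the fl/fl libraries. The groups all but touched, and dLck-Cre replicate 1 stood below the other 3 libraries. Its difference of -0.24 ± 0.17 (SE) did not pass (limma, adjusted p = 0.447) and was -0.02 without dLck-Cre replicate 1. The sign turned positive when libraries were scaled to T cell identity genes (0.32) or to sort gate genes (0.21).

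Tmem176a and Tmem176b are neighbours on chromosome 6 and run head to head on opposite strands. Tmem176a (48840919 to 48847071, plus strand) and Tmem176b (48833818 to 48841496, minus strand) share 578 annotated bases, of which 81 are exonic in both genes. Tmem176a had 2146 and 2337 normalized counts in the libraries labelled dLck-Cre, compared with 3646 and 3011 in the fl/fl libraries. Tmem176b had 2500.4 and 2760.2 in the libraries labelled dLck-Cre, compared with 3801 and 3248 in the fl/fl libraries. In both genes fl/fl replicate 1 was the highest library and dLck-Cre replicate 1 the lowest. Tmem176a differed by -0.56 ± 0.15 (SE; limma, adjusted p = 0.0635; DESeq2, adjusted p = 0.0237) and Tmem176b by -0.42 ± 0.14 (limma, adjusted p = 0.125; DESeq2, adjusted p = 0.122). The ratio of Tmem176a to Tmem176b was 0.858 and 0.847 in the libraries labelled dLck-Cre and 0.959 and 0.927 in the fl/fl libraries. Scaling to T cell identity genes left differences of -0.00085 for Tmem176a and 0.14 for Tmem176b, so that the sign of Tmem176b turned. Macrophage and dendritic cell markers, from cells that also express this pair, took a larger summed share in the libraries labelled dLck-Cre. Their part in these values was not tested.

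**Figure D2:**
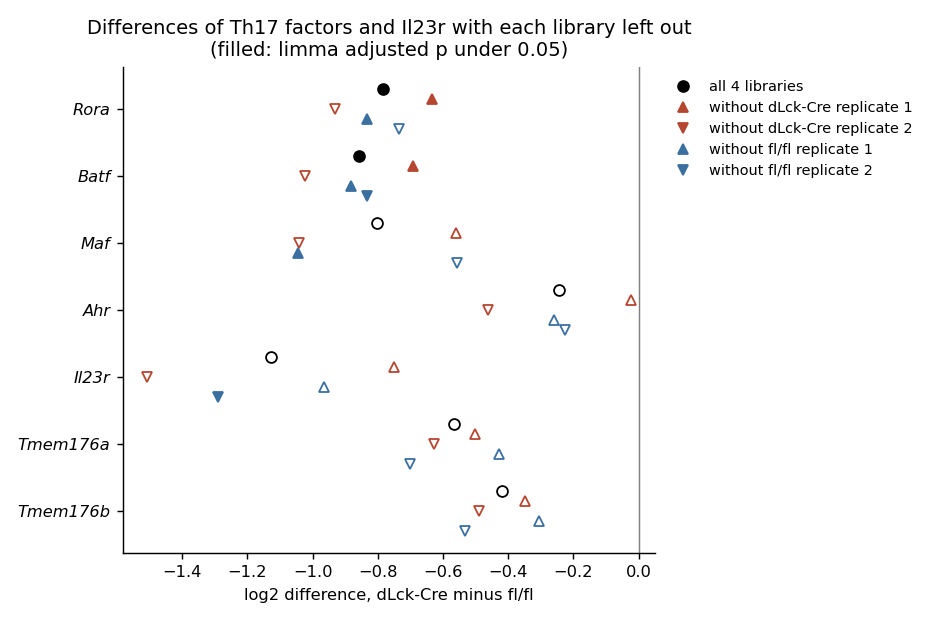
Log2 differences (dLck-Cre minus fl/fl, horizontal axis) of the 7 genes with all libraries and with each library left out; filled symbols passed limma's test. All points lie below 0, and without dLck-Cre replicate 2 no gene of the 7 passed.

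Relative to the genes that defined the sort, both libraries labelled dLck-Cre lay below both fl/fl libraries for 3 of the 7 genes, beside 3.24% of genes tested, and 0 of the 7 passed limma's test on the sort gate scaling (1 at an unadjusted p under 0.05). Rora reached 31.4% and 40.4% of the summed level of the 5 sort gate genes in the libraries labelled dLck-Cre, compared with 43.5% and 45.3% in the fl/fl libraries. Batf stood at 6.48% and 8.54% of it in the dLck-Cre libraries and at 9.71% and 9.80% in the fl/fl libraries. Il23r stood at 0.613% and 1.09% of it in the dLck-Cre libraries and at 1.47% and 1.14% in the fl/fl libraries. For Il23r the nearest libraries were at 1.09% (dLck-Cre replicate 2) and 1.14% (fl/fl replicate 2). For Maf, Ahr, Tmem176a and Tmem176b the groups overlapped on this scale; Ahr averaged 3.50% in the libraries labelled dLck-Cre and 2.95% in the fl/fl libraries.

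**Figure D3:**
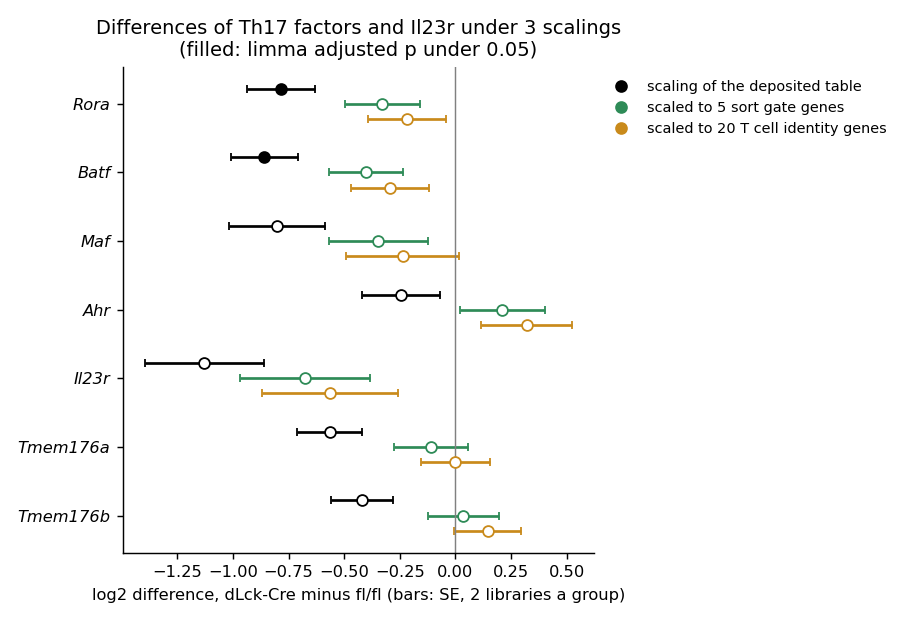
Log2 differences (dLck-Cre minus fl/fl, horizontal axis; bars show SE, 2 libraries a group) of the 7 genes under the deposited scaling, scaling to 5 sort gate genes and scaling to 20 T cell identity genes; filled points passed limma's test. Rora and Batf are filled under the deposited scaling alone, Il23r stays lowest of the 7 under each, and Ahr and Tmem176b change sign.

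**Figure D4:**
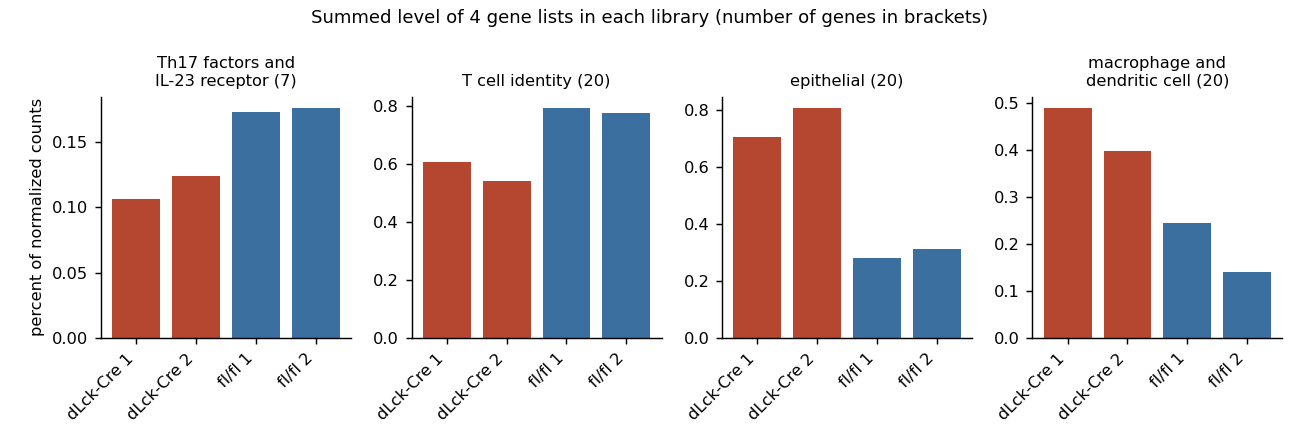
Percent of normalized counts (vertical axes, from 0) taken by the 7 genes, by T cell identity genes, by epithelial markers and by macrophage and dendritic cell markers in each library. The 7 genes and the T cell identity genes are lower in both libraries labelled dLck-Cre than in both fl/fl libraries, and both marker lists are higher.

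Levels of different genes were compared per kilobase of annotated exons. Batf was highest in both groups, at 1571 ± 256 normalized counts per kilobase in the libraries labelled dLck-Cre and 2829.9 ± 70.3 in the fl/fl libraries (SD, n = 2 each). In the libraries labelled dLck-Cre there followed Tmem176b (1109), Rora (808), Tmem176a (588), Maf (212), Ahr (167) and Il23r (100.2), all as normalized counts per kilobase. In that order Maf and Ahr overlapped between libraries and the other neighbours did not. In the fl/fl libraries the order was the same for the upper 5 genes, with Tmem176b (1486), Rora (1384), Tmem176a (874) and Maf (370.0) after Batf, and Il23r (213) stood above Ahr (195). There Tmem176b and Rora overlapped between libraries, as did Il23r and Ahr.

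Over the 4 libraries the closest pattern to Rora among 11036 genes was that of Ptpn22, a phosphatase gene of T cell receptor signalling, with a root mean square distance of 0.0321 between centred log2 values. Batf came next, at 0.0428. The genes nearest to Batf were Hic1, a transcriptional repressor gene (0.0422), and Rora. Maf was nearest to Slamf1 (0.0299), which encodes a receptor on activated lymphocytes, and to the glucocorticoid receptor gene Nr3c1 (0.0570). Ahr was nearest to the pro-apoptotic gene Bcl2l11 (0.00854) and to Gstp3 (0.0231). Il23r had no equally close gene, with Cetn4 at 0.107 and Sgip1 at 0.176. This distance depends on the size of differences as well as on their shape. Il23r had the largest difference and the lowest count of the 7, so its larger distances do not by themselves show a distinct pattern. Tmem176a was nearest to Ddx59 (0.0230) and Gpc1 (0.0294), Tmem176b to Chst12 (0.0255) and Agbl5 (0.0265), and the pair lay 0.0752 from each other.

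Genes that receive Th17-inducing and related signals did not move as a group. Of 12 genes for reception of IL-12, IL-23, IL-6, IL-21, IL-1 and TGF-beta, 2 fell and 0 rose over all genes. The backgrounds were 1.22% called lower and 5.75% called higher, and the list's median log2 difference was -0.11. Il1r1, the interleukin 1 receptor gene, had 479 and 384 normalized counts in the libraries labelled dLck-Cre, compared with 1898 and 1902 in the fl/fl libraries (log2 difference -2.15; adjusted p = 0.0195). Tgfbr2, which encodes the TGF-beta type II receptor, fell by 0.70 (adjusted p = 0.0283). Il1r1 also passed as lower under both T cell scalings and quantile normalization, and Tgfbr2 passed under none of these. Il6ra differed by 0.99 (adjusted p = 0.0782) and Il6st, the shared signalling chain of the IL-6 family, by 0.39 (adjusted p = 0.255). Under scaling to T cell identity genes both passed as higher (1.55 and 0.96; adjusted p = 0.0108 and 0.0230), as they did under scaling to sort gate genes (1.44 and 0.85; adjusted p = 0.0108 and 0.0259). The list then had 4 genes higher and 1 lower with identity genes, and 3 higher and 1 lower with sort gate genes. Of the 16490 genes tested, 5869 and 3776 passed as higher under these scalings, and 46 and 55 as lower. Il12rb1, the partner chain of IL-23R, differed by -0.29 (adjusted p = 0.302) and Stat3 by -0.01 (adjusted p = 0.990); Il12rb1 was named after its value was seen. Stat3 had 7703 and 12604 normalized counts in the libraries labelled dLck-Cre and 8050 and 12195 in the fl/fl libraries, so its replicates differed more than its groups. The list's median was 0.46 and 0.35 under the T cell scalings, below the 0.54 and 0.43 of all genes. It was 0.01 under quantile normalization, against -0.08 over all genes.

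Among partner factors of the Th17 program, Ikzf1 was one of those that fell. Of 13, 2 fell and 0 rose over all genes, beside backgrounds of 1.22% called lower and 5.75% called higher. The list's median was -0.26, and 11 of 13 differences were below 0, against 52.3% of all genes tested. Ikzf1, which encodes the zinc finger factor Ikaros, had 4206 and 3279 normalized counts in the libraries labelled dLck-Cre, compared with 6342 and 5595 in the fl/fl libraries (log2 difference -0.68; adjusted p = 0.0487). Its relative Ikzf3, which encodes Aiolos, differed by -0.88 (adjusted p = 0.0618), and the chromatin organizer gene Satb1 by -0.56 (adjusted p = 0.0896). Irf4, the partner of BATF, had 3412 and 6040 normalized counts in the libraries labelled dLck-Cre, compared with 8508 and 3588 in the fl/fl libraries, so the groups overlapped (log2 difference -0.28; adjusted p = 0.726). Ikzf1 did not pass under TMM normalization (adjusted p = 0.0570), quantile normalization (adjusted p = 0.154) or either T cell scaling. With identity genes as the scale 2 genes of the list passed as higher and 1 as lower, with sort gate genes 1 and 1. Over all 16490 genes tested, 5869 and 3776 passed as higher. The list's medians of 0.31 and 0.20 lay below the 0.54 and 0.43 of all genes.

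Of 9 effector genes of Th17 cells, 2 fell and 0 rose over all genes, beside backgrounds of 1.22% called lower and 5.75% called higher. The list's median was -0.75. Il21, a cytokine gene that c-MAF drives, had 167 and 188 normalized counts in the libraries labelled dLck-Cre, compared with 387 and 433 in the fl/fl libraries (log2 difference -1.20; adjusted p = 0.0215). It was still lower under both T cell scalings (adjusted p = 0.0464 and 0.0316). Il17a fell by 1.78 (adjusted p = 0.0484), with 369 and 456 normalized counts in the libraries labelled dLck-Cre and 843 and 2374 in the fl/fl libraries, and did not pass under either T cell scaling or quantile normalization (adjusted p = 0.0759). Il22, which AHR supports, differed by -0.75 (adjusted p = 0.277), with 1635 and 3499 normalized counts in the libraries labelled dLck-Cre and 3018 and 5350.0 in the fl/fl libraries, so the groups overlapped. Csf2, the GM-CSF gene, and Ccl20, the ligand of CCR6, lay on the other side of 0, at 1.22 (adjusted p = 0.0522) and 1.17 (adjusted p = 0.117). Under both T cell scalings Csf2 passed as higher (1.78 and 1.67, limma adjusted p = 0.0127 and 0.0116), as did Ccl20 (1.73 and 1.62, adjusted p = 0.0257 and 0.0250). Of the list 2 genes were then higher and 1 lower, beside 5869 and 3776 of 16490 genes tested called higher. Epithelial markers and macrophage and dendritic cell markers took larger summed shares in the same libraries. The part of such cells in the Csf2 and Ccl20 values was not tested.

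Of 13 factors that oppose the Th17 fate, 2 fell and 1 rose over all genes. The backgrounds were 1.22% called lower and 5.75% called higher. The list's median was -0.17, and under the T cell scalings it was 0.39 and 0.28, below the 0.54 and 0.43 of all genes. Gfi1, a transcriptional repressor gene, fell by 1.03 (adjusted p = 0.0480) and Ets1 by 0.77 (adjusted p = 0.0482), and neither passed under TMM normalization, quantile normalization or the T cell scalings. Id3, an inhibitor of E proteins, had 575 and 509 normalized counts in the libraries labelled dLck-Cre, compared with 282 and 203 in the fl/fl libraries (log2 difference 1.17; adjusted p = 0.0269; under quantile normalization adjusted p = 0.0540). Under the T cell scalings 4 and 3 genes of the list passed as higher and 0 as lower (0 and 1 lower at an unadjusted p under 0.05). Over all genes tested, 5869 and 3776 of 16490 then passed as higher. Eomes differed by 0.71 (adjusted p = 0.0669), the Th1 factor gene Tbx21 by 0.06 (adjusted p = 0.925) and the Th2 factor gene Gata3 by -0.72 (adjusted p = 0.0729). Foxp3, the regulatory T cell factor gene, rested on 4 and 38 reads in the libraries labelled dLck-Cre and 16 and 12 in the fl/fl libraries (adjusted p = 0.868).

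Genes that AHR is known to induce were not lower. Of 4 such genes tested, 1 rose and 0 fell, beside backgrounds of 5.75% called higher and 1.22% called lower. Their median was 0.92. Gpr15, a colon homing receptor gene, had 128 and 104 normalized counts in the libraries labelled dLck-Cre, compared with 44.7 and 50.8 in the fl/fl libraries (log2 difference 1.26; adjusted p = 0.0416). It did not pass under quantile normalization (limma, adjusted p = 0.0988), and under either T cell scaling 3 of the 4 genes passed as higher. Over all genes tested, 5869 (identity genes) and 3776 (sort gate genes) of 16490 then passed as higher. Nqo1 differed by 0.92 (adjusted p = 0.0971), the AHR repressor gene Ahrr by 0.91 (adjusted p = 0.353) on 13 and 35 reads in the libraries labelled dLck-Cre and 11 and 8 in the fl/fl libraries, and Tiparp by 0.23 (adjusted p = 0.385). Cyp1a1 and Cyp1b1, the classic AHR targets, were sought but are not among the 16555 genes. Epithelial markers were higher in the same libraries, epithelial cells also express Nqo1, and their part in these values was not tested.

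Clock genes, some of which ROR factors activate, showed no call. Of 9 genes tested, 0 passed by limma, beside backgrounds of 5.75% called higher and 1.22% called lower, at a median of 0.01. In a list of 9 genes, 0 calls is near those shares and is no result about clock genes. By edgeR 0 were also called and by DESeq2 1, and 3 had an unadjusted limma p under 0.05. Nr1d2, which encodes the repressor REV-ERBβ, had 1554.4 and 1554.5 normalized counts in the libraries labelled dLck-Cre, compared with 2159 and 2955 in the fl/fl libraries (log2 difference -0.70; adjusted p = 0.0544). The clock genes Per2 (0.91), Npas2 (0.96) and Bhlhe40 (-0.23) had adjusted p-values between 0.105 and 0.436. Under the T cell scalings 4 and 3 of the 9 genes passed as higher, beside 5869 and 3776 of 16490 genes tested.

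Relatives of the factors lay on the other side of 0 from Batf and Maf. Of 7 BATF and MAF relatives, 2 rose and 0 fell, beside backgrounds of 5.75% called higher and 1.22% called lower. Their median was 0.71. Batf2, an interferon-inducible BATF relative, had 523 and 1240.1 normalized counts in the libraries labelled dLck-Cre, compared with 154 and 251 in the fl/fl libraries (log2 difference 2.03; adjusted p = 0.0332). It did not pass under quantile normalization (limma, adjusted p = 0.0688), where 0 of the 7 relatives passed (5 at an unadjusted p under 0.05). Under either T cell scaling 6 of the 7 passed as higher, beside 5869 (identity genes) and 3776 (sort gate genes) of 16490 genes tested. Batf3, a dendritic cell factor gene, differed by 1.07 (adjusted p = 0.0872) and Maff by 0.71 (adjusted p = 0.0724). Of 9 genes of the MS4A family, to which the TMEM176 proteins are related, 4 rose and 0 fell, beside the same backgrounds. Their median was 1.01. The called genes were Ms4a4c (1.39), Ms4a8a (1.29), Ms4a6d (1.22) and Ms4a6c (1.01), with limma adjusted p-values between 0.0226 and 0.0266. Under either T cell scaling 6 of the 9 passed as higher, again beside 5869 and 3776 of 16490 genes tested. Ms4a4b and Ms4a6b, which T cells express and which were named after their values were seen, differed by -0.19 (adjusted p = 0.520) and -0.17 (adjusted p = 0.578). Of 20 macrophage and dendritic cell markers 13 passed as higher in the same libraries, beside 5.75% of genes tested. The dendritic cell markers Clec9a (1.64, limma adjusted p = 0.119), Flt3 (0.96, adjusted p = 0.114) and Xcr1 (-0.25, adjusted p = 0.619) did not pass. The part of such cells in the Batf3 and MS4A values was not tested.

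**Figure D5:**
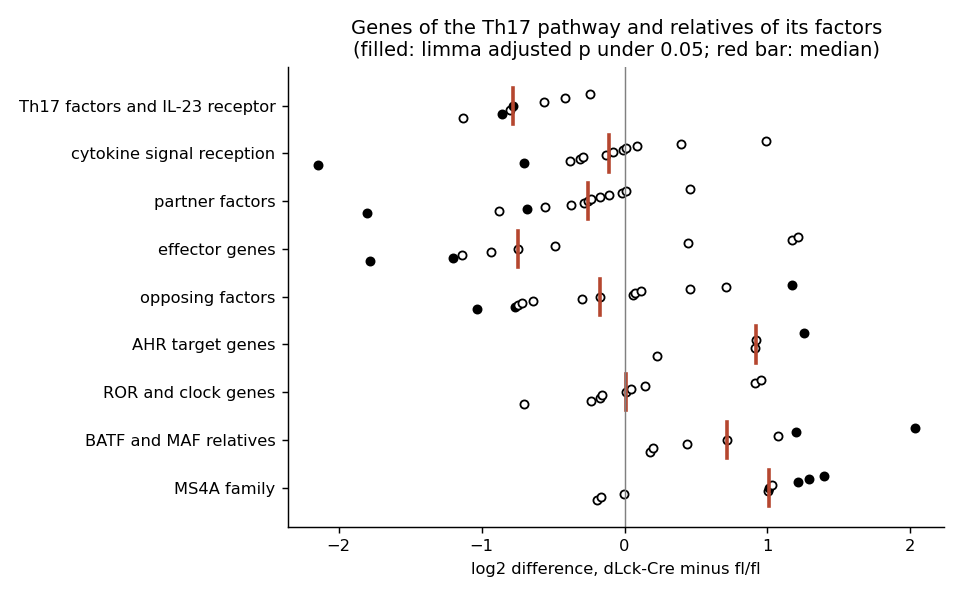
Log2 differences (dLck-Cre minus fl/fl, horizontal axis) of the 7 genes and of the genes of 8 lists, 1 point a gene; filled points passed limma's test over all genes and red bars are list medians. The 7 genes all lie below 0 (median -0.78), effector genes are spread over both sides (median -0.75), and AHR target genes, BATF and MAF relatives and the MS4A family have positive medians (0.92, 0.71 and 1.01).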

How the data were processed

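RNA-seq of 4 libraries was analysed from 1 table of 16555 genes. The deposited values are a signal, gene counts that the authors divided by 1 size factor per library, as the table's name and its values show; the build was mm10, per the submitters' processing notes. For aligner, counting tool and strand setting, nothing is given in the sources used here, so reads of overlapping antisense genes cannot be told apart: 440 exonic bases of Maf, 127 of Ahr and 82 of Rora are shared with antisense or noncoding genes. In every library 100% of values were whole multiples of 1 step (tolerance 1e-06), which gave whole reads. Columns were assigned by the labels.

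The 16490 genes whose mean reached 10 entered the test, on log2(value + 1), a pseudocount of 1, with limma 3.58.1 (intensity trend, 2-sided, Benjamini-Hochberg, threshold 0.05) in R 4.3.3; fold changes are on that scale. On the recovered reads edgeR 4.0.16 called 1133 genes and DESeq2 1.42.0 called 1768. Steps were tested on simulated data. Coordinates and exonic lengths are from GENCODE vM21 (GRCm38), promoters from RefSeq GRCm38.p6.

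The members and lists were chosen with earlier results of these data known. Named were the 7 genes, Csnk2a1, up to 4 genes of each pathway list by p-value with defining T helper genes, and the 2 genes nearest to each member in pattern (mean of at least 50); others are said to be named after their values were seen. Some genes that the rule takes are counted in their lists but not reported here by name. An exact permutation test of 2 against 2 libraries cannot go below p = 0.333 and was not used. Of other marker lists, innate lymphoid and gamma-delta T (limma and edgeR called 0 of 8 genes, DESeq2 2, and 4 had an unadjusted limma p under 0.05), granulocyte and mast (1 of 9 higher), B and plasma (1 of 4 higher), CD8 T and NK (1 of 8 higher), T cell identity (8 of 20 lower) and CK2 subunit genes (0 of 3 by limma, edgeR and DESeq2, 2 at an unadjusted p under 0.05) were counted. The limma backgrounds for these counts were 5.75% of genes tested called higher, 1.22% called lower and 6.97% called in either direction. Figures were drawn with matplotlib 3.10.9.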

Additional observations from a re-analysis of the deposited data

How the results depend on the processing

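Results were recomputed under 21 alternatives. All 7 genes kept a negative difference under those that did not scale to T cell genes; Ahr (0.32 with identity genes, 0.21 with sort gate genes) and Tmem176b (0.14 and 0.035) turned positive under those that did. The count of the 7 genes past the threshold was 0 under quantile normalization, scaling to T cell identity genes, scaling to sort gate genes, limma without trend and without dLck-Cre replicate 2 (5, 0, 1, 5 and 7 of the 7 at an unadjusted p under 0.05, in that order), and 5 with DESeq2 (Ahr and Tmem176b did not pass, beside a background of 3.02% called lower) against 2 with edgeR (background 1.04%). Over all genes it was 341 with quantile normalization, 5915 with T cell identity genes, 3831 with sort gate genes, 0 without trend (3443 at an unadjusted p under 0.05) and 1768 with DESeq2, against 1150. Of these calls 99.2% were higher with identity genes and 98.6% with sort gate genes, against 82.4%. Leaving out 1 library gave 17 to 1290 genes by limma and 71 to 1316 by edgeR, 0 to 3 of the 7 genes by each, and 2 to 18 pathway genes by each. Pathway list genes past the threshold numbered 7 with quantile normalization, 34 with identity genes, 30 with sort gate genes and 0 without trend (32 at an unadjusted p under 0.05), against 16. The causes of these changes were not tested.

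Replicate numbers are shared between the groups, but with 2 pairs the labels do not make them pairs; deviations of same-numbered libraries correlated at 0.110 across genes. With the replicate block 2096 genes passed (70.4% higher), 5 of the 7 and 28 pathway genes. With 2 libraries a group, a difference near the spread of replicates, such as that of Ahr, was not resolved. Where a group was left with 1 library, that library was assumed to vary like the others.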
